A study of Mus musculus with 10 samples.

Results

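Cultured cells of the regenerating mouse olfactory epithelium that carried a short hairpin against Cbx8 were compared with cells that carried a hairpin against Cbx7. The comparison took every library titled shCBX8 (replicates 1, 2 and 6) and every library titled shCBX7 (replicates 1, 2 and 5), which makes 6 of the 10 libraries of the series, and it covered all 16669 genes that passed a filter on low counts out of 41091 in the files. The other 4 libraries (shCTR 1, 2, 5 and 6), which had a non-targeting scrambled hairpin, entered the fit to estimate the spread, and their levels are set beside both groups. All 10 shared strain C57BL6, adult tissue taken 9 days after a methimazole lesion, enzymatic dissociation, adherent growth on gelatin with EGF and FGF2, and delivery of the hairpin by lentivirus. Neither the hairpin sequences, nor the number of hairpins per gene, nor the time between transduction and RNA collection is given in the sources used here. The series calls the replicates biologic and does not state if each came from its own mouse or culture, so the p-values reflect only how these samples varied, which may be technical.

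CBX7 and CBX8 are alternative subunits of canonical Polycomb repressive complex 1 (PRC1). Their chromodomains bind histone H3 trimethylated at lysine 27, the mark written by PRC2, and the complex compacts chromatin and ubiquitinates histone H2A, which keeps developmental regulators and the Cdkn2a locus repressed in many cell types. In the olfactory epithelium, horizontal and globose basal cells rebuild neurons, sustentacular cells and glands after a lesion, while fibroblasts, ensheathing glia, vessels and Bowman glands lie in the connective tissue below. A culture dissociated from this tissue can hold any of these cells. In bulk RNA, fewer cells of a type and less RNA per cell cannot be told apart.

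Gene counts in shCBX8 1, 2 and 6 were 43731320, 31665704 and 41670399, and those in shCBX7 1, 2 and 5 were 50463172, 35144409 and 40596975. Some technical measures moved with the groups. Unmapped reads made up 5.03 to 6.20% of reads in shCBX7 and 7.28 to 7.81% in shCBX8, reads in no gene 12.5 to 15.0% against 15.4 to 18.6%, and the repeat-derived gene model Gm10800 took 0.737 to 1.004% against 1.12 to 1.51% of gene counts. The part of these measures in the differences below was not tested. In shCTR, unmapped reads reached 9.83 to 21.7%. The shCBX8 libraries were also unlike among themselves. Pearson's r of log2 CPM over genes was 0.991 between shCBX8 1 and 6, 0.957 between shCBX8 1 and 2, and 0.960 between shCBX8 2 and shCBX7 5. Counts on the strand opposite to the one used made up 7.75% in shCBX8 2 and 3.42 to 3.96% in the other 5. The first principal component over the 6 libraries held 72.2% of the variance, with shCBX7 1, 2 and 5 at -79.4, -117 and -42.2 and shCBX8 1, 2 and 6 at 103.5, 23.4 and 112. On it, shCBX8 2 lay between the shCBX7 libraries and the other shCBX8 libraries. Relative to the shCBX7 mean, the genes called higher had a median log2 shift of 1.69, 1.14 and 1.78 in shCBX8 1, 2 and 6, and the genes called lower one of -1.16, -0.75 and -1.16.

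Cbx8 was lower in every shCBX8 library than in any shCBX7 library, whereas Cbx7 did not differ beyond the spread between replicates. Levels are given in CPM, read counts scaled to the size of the library, and every fold change is log2 of shCBX8 over shCBX7, given in brackets with its Benjamini-Hochberg adjusted p from edgeR's quasi-likelihood test. Cbx8 (ENSMUSG00000025578, chromosome 11, 119036305 to 119040969, GRCm38/mm10) measured 4.99, 5.14 and 4.71 CPM in shCBX8 1, 2 and 6 and 11.8, 15.5 and 9.96 CPM in shCBX7 1, 2 and 5. This amounted to -1.33 (SE 0.23, adjusted p = 0.00578) on the log2 scale. Two-sided permutation of log2(CPM + 1), exact over the 20 ways to split 6 libraries, gave p = 0.1, which is the lowest value possible. The 4 shCTR libraries held 10.2 to 15.9 CPM, a range that covers the shCBX7 values other than 9.96 CPM in shCBX7 5. Cbx7 (ENSMUSG00000053411, chromosome 15, 79915807 to 79971119) measured 3.64, 8.02 and 13.1 CPM in the libraries shCBX7 1, 2 and 5, against 11.6, 9.17 and 14.2 CPM in shCBX8 1, 2 and 6. The groups overlapped, since shCBX7 5 held more Cbx7 RNA than shCBX8 1 and 2. Its log2 fold change came to 0.50 (SE 0.51, adjusted p = 0.482). The exact permutation test gave p = 0.3, where 0.1 is the lowest value possible. The level of Cbx7 RNA therefore does not check the label of the shCBX7 libraries, and shCBX7 names them by that label throughout.

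Cbx2 and Cbx6, which encode alternative subunits at the same position of PRC1, fell. Cbx2, at 4.80, 6.58 and 5.31 CPM in shCBX8 and 9.02, 9.45 and 9.42 CPM in shCBX7, fell by 0.74 on the log2 scale (SE 0.19, adjusted p = 0.0201). Cbx6, at 76.1, 96.4 and 72.6 CPM against 138, 229.7 and 155 CPM, changed by -1.09 (SE 0.28, adjusted p = 0.0214). Per kilobase of exon, Cbx6 stood above Cbx7 and Cbx8 in both groups, at 7.70 CPM per kb in shCBX8 and 16.4 in shCBX7, while Cbx8 was at 1.35 and 3.38 and Cbx7 at 1.80 and 1.27 CPM per kb. Cdkn2a, the gene of the cell cycle inhibitors p16Ink4a and p19Arf, measured 58.1, 80.5 and 55.3 CPM in shCBX8 and 139, 109.9 and 162 CPM in shCBX7, with 90.2 to 139 CPM in shCTR. All 3 shCBX8 values lay below the others, and the log2 fold change was -1.08 (SE 0.22, adjusted p = 0.00954). With 1 library left out, the call ended for Cbx2 without shCBX8 1/6 (adjusted p = 0.0787 to 0.0866) and Cbx6 without shCBX7 2 or shCBX8 1/6 (adjusted p = 0.0594 to 0.0824). Here shCBX8 1/6 stands for leaving out shCBX8 1 or, in a separate fit, shCBX8 6.

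**Figure D1:**
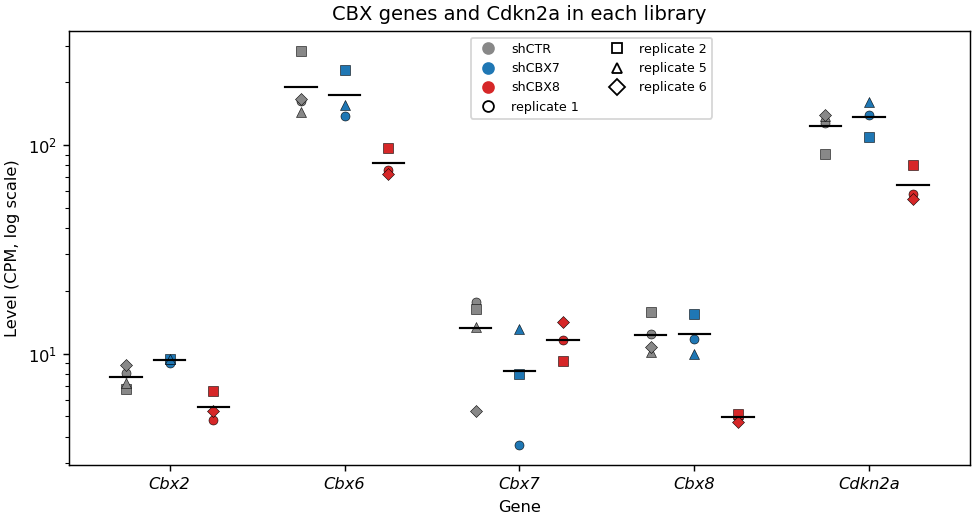
Level of Cbx2, Cbx6, Cbx7, Cbx8 and Cdkn2a in each of the 10 libraries, in CPM on a log axis, where each point is 1 library, colours mark groups, shapes mark replicate numbers and bars mark group means. The shCBX8 points of Cbx8 (4.71 to 5.14 CPM) lie below the other points of that gene, while those of Cbx7 lie among the shCBX7 and shCTR points.

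Of the 16669 genes tested, 4762 (28.6%) differed at an adjusted p under 0.05. Among them 2550 (15.3% of genes tested) were higher and 2212 (13.3%) lower in shCBX8, and the median log2 fold change over all genes was 0.0033. Of the 4762, 4683 had groups that did not overlap, against 8028 (48.2%) of all genes tested, 25.6% higher and 22.6% lower. Differences of over 2-fold made up 2922 of the calls. Over 4-fold, 1075 genes were higher and 403 lower, and over 16-fold 149 were higher and 38 lower. The split of calls depends on scaling: with library sizes alone 4631 genes passed, 67.1% of them higher, against 53.5% here, and the median of all genes moved to 0.15. The count moved with single libraries, and was 1848 without shCBX8 1, 1784 without shCBX8 6, 2730 without shCBX7 1, 2900 without shCBX7 2 and 6005 without shCBX8 2. Below, each call that ended when 1 of the 10 libraries was left out is listed with those libraries and the adjusted p, and each list's count is followed by the counts without a library that moved it by over 1.5 times. Every count of list members called is to be read beside the 15.3% higher and 13.3% lower of all genes tested. The median 95% interval reached 0.65 to each side on the log2 scale, or 0.45 for the 11145 genes averaging 5 CPM or more.

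The direction of the calls differed along the range of levels. In the lowest of 5 equal bins of genes by mean CPM, 19.4% were called higher and 4.11% lower, and in the highest bin 10.3% were higher and 18.9% lower. Genes annotated as long intergenic non-coding RNA (lincRNA) followed the low end, with 22.7% of 370 higher and 5.41% lower, while protein-coding genes had 15.4% of 14760 higher and 14.2% lower. A gene that is low in 1 group can pass the filter through the group where it is high. Olfactory and vomeronasal receptor genes, which mature sensory neurons express, numbered 1653 in the files. Their summed level was 19.2 to 23.0 CPM in shCBX8 and 10.95 to 16.4 CPM in shCBX7 on the strand used. On the opposite strand it was 13.8 to 25.1 CPM in shCBX8 and 11.7 to 16.8 CPM in shCBX7. Whether reads of both strands at this level add to the calls at low levels was not tested.

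**Figure D2:**
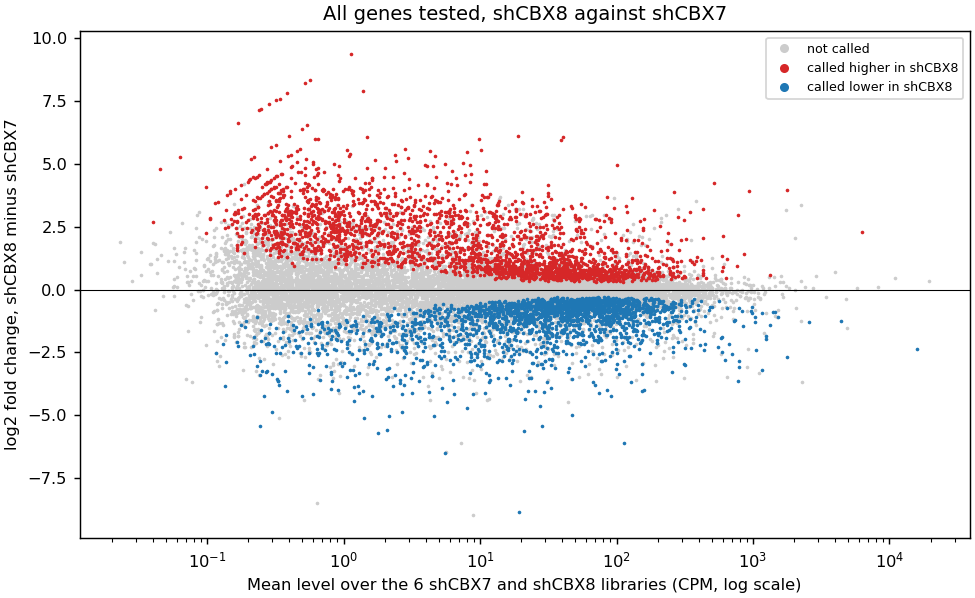
Log2 fold change of shCBX8 over shCBX7 for each gene tested against its mean level over the 6 libraries (CPM, log axis), with called genes coloured. Called rises are spread over the whole range, and called falls thin out at the low end, where 4.11% of the lowest bin were lower.

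Among the largest rises were those of Acta1, Lrp2, Xirp2 and Mybpc2. Acta1, the skeletal muscle alpha-actin, was at 35.5, 17.2 and 60.5 CPM in shCBX8 1, 2 and 6 and 0.0632, 0.119 and 1.43 CPM in shCBX7 1, 2 and 5, or 6.12 (SE 1.04, adjusted p = 0.00557) as log2. Lrp2, which encodes the endocytic receptor megalin, was at 89.4, 28.1 and 124 against 0.253, 2.35 and 1.09 CPM (6.05, SE 0.87, adjusted p = 0.00333). In all 3 shCBX8 libraries both genes stood at least an order of magnitude above their highest shCBX7 value. Xirp2, an actin-binding protein of muscle, measured 14.6, 32.7 and 11.01 against 0.169, 0.119 and 0.618 CPM (5.98, SE 0.76, adjusted p = 0.00260). Mybpc2, the fast skeletal myosin-binding protein C, measured 79.7, 15.99 and 134 against 0.253, 0.0594 and 3.35 CPM (5.96, SE 1.34, adjusted p = 0.0130). The lowest shCBX8 value of Mybpc2 and of Acta1 was that of shCBX8 2, while for Xirp2 shCBX8 2 was the highest. Edn2, a vasoconstrictor peptide gene, was listed at 0 in shCBX7 1 and 2, at 1.26 CPM in shCBX7 5 and at 18.3, 7.73 and 33.3 CPM in shCBX8 (5.53, SE 1.47, adjusted p = 0.0229). Without shCBX7 5 both remaining shCBX7 libraries are at 0, so no fold is given. Ccl20, a chemokine that signals through CCR6, was at 339, 84.7 and 164 CPM against 3.94, 0.416 and 14.4 CPM (4.97, SE 1.30, adjusted p = 0.0220).

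Among the other 6 of these 12 rises, Lce1g belongs to the cornified envelope family (5.46, adjusted p = 0.00260), Etnppl encodes ethanolamine-phosphate phospho-lyase (5.04, adjusted p = 0.00683), and H2-Q2 is a class Ib gene of the major histocompatibility complex (4.998, adjusted p = 0.00515). Lce1g and H2-Q2 have close relatives, so counts may be split between copies. Bex1 (4.93, adjusted p = 0.00925), Sdr16c5, a short-chain dehydrogenase active on retinol (4.71, adjusted p = 0.00891), and Kng1, the gene of kininogen (4.70, adjusted p = 0.00237), completed the set. Kng1 had the smallest SE of the 12, at 23.2, 10.2 and 30.3 CPM in shCBX8 and 0.506, 0.921 and 1.02 CPM in shCBX7. All 6 stayed at or below 1.09 CPM in the shCBX7 libraries. The shCTR libraries held 0.691 to 1.98 CPM for Kng1, 0.288 to 0.515 CPM for Acta1 and 1.01 to 2.65 CPM for Lrp2. Calls that did not survive leaving out 1 library were those of Edn2 without shCBX8 1/6 (adjusted p = 0.0624 to 0.0767) and Ccl20 without shCBX7 1 or shCBX8 1/6 (adjusted p = 0.0550 to 0.0753).

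Among the largest falls were those of Inmt, Tgfbi, Frem1 and Igf2. Inmt, which encodes a methyltransferase of small amines, was at 0.0629, 0.180 and 0.0215 CPM in shCBX8 and 19.4, 94.8 and 1.40 CPM in shCBX7 (-8.83, SE 1.76, adjusted p = 0.00894). Tgfbi, a matrix protein induced by TGF-beta, measured 0.461, 4.48 and 4.75 against 103, 169.97 and 403 CPM (-6.13, SE 0.95, adjusted p = 0.00411). Inmt ranged widely within shCBX7. That neither gene overlapped between the groups follows from the rule by which these genes were named. Frem1, an extracellular protein of basement membranes, measured 0.587, 2.89 and 0.473 against 22.03, 77.2 and 67.03 CPM (-5.43, SE 1.10, adjusted p = 0.00957). Igf2, the imprinted growth factor gene, was at 1.22, 5.83 and 1.57 against 147, 55.3 and 72.4 CPM (-5.01, SE 0.73, adjusted p = 0.00349), and all 4 shCTR libraries held more, at 182 to 478 CPM. Slitrk1, a transmembrane protein of neurons, had the smallest SE, at 0.482, 1.08 and 0.215 against 12.1, 18.9 and 15.5 CPM (-4.73, SE 0.55, adjusted p = 0.00225).

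Of the other 7 falls, Tfap2b encodes the transcription factor AP-2 beta, which acts in neural crest derivatives (3.37, 1.56 and 1.42 against 83.7, 36.00 and 39.3 CPM, -4.64, adjusted p = 0.00568). Kank4 measured 0.587, 1.44 and 0.774 against 10.4, 29.3 and 10.4 CPM (-4.17, adjusted p = 0.00354). Elastin, Eln, was at 0.189, 0.0902 and 0.0645 CPM in shCBX8 and at 1.18, 31.01 and 0.856 CPM in shCBX7, where shCBX7 2 stood far above the others (-6.52 (adjusted p = 0.0450), or -3.14 without shCBX7 2). The small leucine-rich proteoglycan Aspn (-5.64, adjusted p = 0.0332), the coagulation factor XIII subunit F13a1 (-4.46, adjusted p = 0.0116), Fibin (-4.37 (adjusted p = 0.0363), or -2.54 without shCBX7 2) and the granin Scg2 (-4.22 (adjusted p = 0.0173), or -6.53 without shCBX8 2) also fell. Scg2 was at 2.30, 24.1 and 1.46 CPM in shCBX8 and 116, 278 and 125 CPM in shCBX7. When libraries were left out singly, the threshold was missed by Eln without shCTR 1 or shCBX7 1/2 or shCBX8 1/2/6 (adjusted p = 0.0531 to 0.193), Aspn without shCBX7 1/2 or shCBX8 1/6 (adjusted p = 0.0579 to 0.116), F13a1 without shCBX8 1/6 (adjusted p = 0.0527 to 0.0550), Fibin without shCBX7 2 or shCBX8 1/6 (adjusted p = 0.123 to 0.125) and Scg2 without shCBX8 1 (adjusted p = 0.0601).

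**Figure D3:**
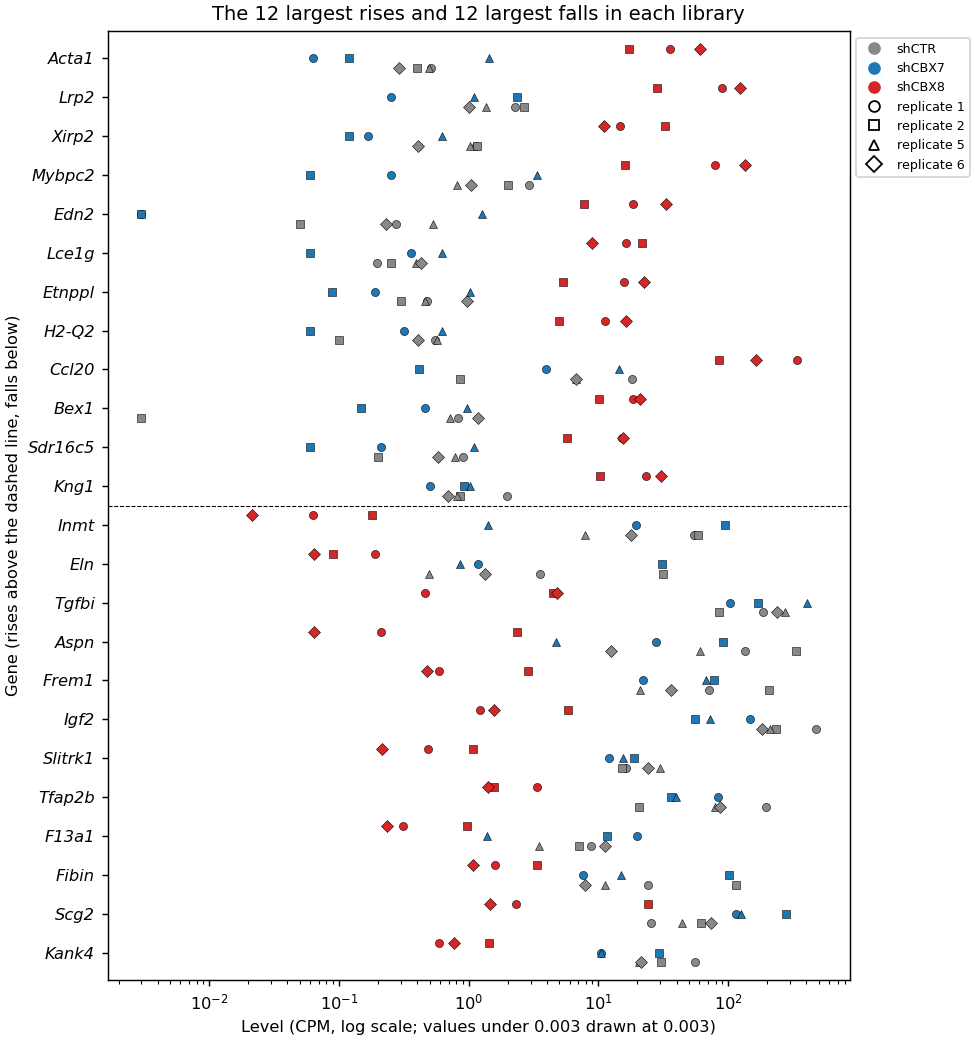
Level in each of the 10 libraries of the 12 protein-coding genes with the largest rises (above the dashed line) and the 12 with the largest falls (below it), in CPM on a log axis, 1 point per library. The shCTR points lie with the shCBX7 points for most genes, and shCBX8 2 is often the shCBX8 point nearest to them.

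Abundant transcripts also differed. Anxa1, the phospholipid-binding annexin A1, rose from 2065, 1373 and 2953 CPM in shCBX7 to 13833, 6171 and 11352 CPM in shCBX8 (2.29, SE 0.44, adjusted p = 0.00786). Cryab, a small heat shock protein, was at 2039.7, 667 and 2575 CPM against 71.03, 43.7 and 238 CPM (3.90, SE 0.76, adjusted p = 0.00822), and the chaperone gene Hsp90aa1 at 1531, 948 and 1289.8 against 535, 373 and 507 CPM (1.41, SE 0.27, adjusted p = 0.00743). The calls of these 3 genes held whichever library was left out. Krt17, a keratin of activated basal cells (3.95, adjusted p = 0.0344), Ltf, which encodes the secreted lactoferrin (2.97 (adjusted p = 0.0475), or 4.54 without shCBX7 5), and Sptan1, the alpha-II spectrin (0.59, adjusted p = 0.0345), rose too. Gsn, the actin-severing protein gelsolin, fell from 3149, 3002 and 3134 CPM to 277, 875 and 273 CPM (-2.70, SE 0.45, adjusted p = 0.00519). Its 3 shCBX7 values were close to each other. Myh9, the heavy chain of non-muscle myosin IIA (-1.08, adjusted p = 0.0109), the intermediate filament gene Vim (-1.29, adjusted p = 0.0238) and the scaffold gene Ahnak (-1.26, adjusted p = 0.0229) fell. Spp1, which encodes osteopontin, was the most abundant of them, at 2626, 10766 and 2335 CPM in shCBX8 and 42514, 24068 and 13921 CPM in shCBX7 (-2.36, adjusted p = 0.0463), and Igf2r, the receptor that clears IGF2, fell least (-0.90, adjusted p = 0.0484). Leaving out 1 library ended the call of Krt17 without shCTR 5 or shCBX7 1/2 or shCBX8 1/6 (adjusted p = 0.0507 to 0.108), Ltf without shCTR 1/5/6 or shCBX7 1 or shCBX8 1/2/6 (adjusted p = 0.0559 to 0.137), Sptan1 and Igf2r without shCTR 1/5 or shCBX7 1/2/5 or shCBX8 1/6 (adjusted p = 0.0533 to 0.171), Myh9 without shCBX8 1 (adjusted p = 0.0510), Vim without shCBX7 1 or shCBX8 1/6 (adjusted p = 0.0688 to 0.0990), Ahnak without shCBX7 1/5 or shCBX8 1/6 (adjusted p = 0.0549 to 0.0944) and Spp1 without shCTR 1/5 or shCBX7 1/2 or shCBX8 1/6 (adjusted p = 0.0566 to 0.155).

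Among genes not annotated as protein-coding, H19, the maternally expressed neighbour of Igf2, measured 8.51, 16.9 and 28.6 CPM in shCBX8 and 407, 158 and 310.4 CPM in shCBX7 (-4.02, SE 0.85, adjusted p = 0.0108). H19 and Igf2 were both low in all 3 shCBX8 libraries. Ptprv was at 2.22, 8.60 and 2.26 against 25.8, 21.03 and 44.1 CPM (-2.81, adjusted p = 0.0101), and Dnm3os, the host of the miR-199a and miR-214 hairpins, at 5.32, 27.2 and 4.32 against 86.2, 82.04 and 51.7 CPM (-2.58 (adjusted p = 0.0184), or -3.94 without shCBX8 2). Mirt1 (3.58, adjusted p = 0.0132), Gm5860 (3.66, adjusted p = 0.0173) and Six3os1, which neighbours the eye and forebrain gene Six3 (3.43, adjusted p = 0.0214), rose. Single libraries decided the call of Dnm3os without shCBX8 1/6 (adjusted p = 0.0557 to 0.0662), Mirt1 without shCBX7 1 (adjusted p = 0.0511) and Gm5860 and Six3os1 without shCBX7 1 or shCBX8 1/6 (adjusted p = 0.0538 to 0.0734).

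Among other Polycomb subunits, Phc1 of PRC1 fell and Suz12 of PRC2 rose, both in calls that held whichever library was left out. Of the 15 canonical PRC1 genes, 4 fell (median -0.53), the 3 CBX genes above and Phc1, a polyhomeotic subunit that polymerises through its SAM domain. Phc1 was at 5.13, 5.05 and 5.46 CPM in shCBX8 and 10.1, 11.9 and 13.3 CPM in shCBX7 (-1.17, SE 0.16, adjusted p = 0.00296). Its values varied little within either group. Of the 23 variant PRC1 genes, 3 rose, among them Pcgf6 (25.9, 19.2 and 23.2 against 12.3, 10.5 and 13.6 CPM, 0.90, adjusted p = 0.00961), and 3 fell, namely the CxxC-domain demethylase gene Kdm2b (-0.84, adjusted p = 0.0167), its partner Bcor (-0.66, adjusted p = 0.0114) and Dcaf7 (-0.68, adjusted p = 0.0118). Of the 13 PRC2 genes, 2 rose, a share near that of all genes tested. Suz12, a core subunit that the methyltransferase needs for its stability, was at 139, 126 and 136 CPM against 57.3, 51.1 and 74.3 CPM (1.13, SE 0.18, adjusted p = 0.00447). The accessory subunit Mtf2 was at 69.5, 57.3 and 63.4 against 47.7, 35.7 and 39.5 CPM (0.63, SE 0.13, adjusted p = 0.00952). Both were higher in each shCBX8 library than in any of the other 7. Calls that did not survive leaving out 1 library were those of Kdm2b and Dcaf7 without shCBX8 1/6 (adjusted p = 0.0520 to 0.0709) and Bcor without shCBX8 6 (adjusted p = 0.0539). Falls among canonical PRC1 genes numbered 2 without shCBX8 1/6, and among variant PRC1 genes rises numbered 1 without shCBX7 2 or shCBX8 1/6 and 5 without shCTR 6 or shCBX8 2 and falls 0 to 1 without shCBX8 1/6.

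Classical Polycomb targets did not move as 1 group. Of the 7 cyclin-dependent kinase inhibitor genes, 4 fell (median -1.08, and 2 without shCBX8 1/6). Besides Cdkn2a these were Cdkn1a, which encodes p21 (137, 143 and 115 against 274, 263 and 298 CPM, -1.08, SE 0.21, adjusted p = 0.00797), Cdkn2c (-1.52, adjusted p = 0.0240) and Cdkn2d (-1.51, adjusted p = 0.0171). All 4 were lower in each shCBX8 library than in any shCBX7 library. Only 8 of 39 Hox genes passed the filter, so their counts describe those alone: 4 were called higher (2 without shCBX7 1 or shCBX8 1/6), all at low levels. Hoxb9 was at 0.754, 0.571 and 0.710 CPM in shCBX8 and 0, 0.0594 and 0.0713 CPM in shCBX7, Hoxc6 at 0.335, 0.391 and 0.452 against 0.0421, 0 and 0 CPM, Hoxb4 at 0.839 to 1.13 against 0.0421 to 0.0713 CPM and Hoxc4 at 0.473 to 0.902 against 0 to 0.0951 CPM. Summed over the 39 Hox genes in the files, the level was 9.63 to 11.6 CPM in shCBX8, 0.927 to 12.7 CPM in shCBX7 and 2.99 to 18.9 CPM in shCTR, and the groups overlapped. When libraries were left out singly, the threshold was missed by Cdkn2c without shCBX7 2 or shCBX8 1/6 (adjusted p = 0.0696 to 0.0929), Cdkn2d without shCBX8 1/6 (adjusted p = 0.0714 to 0.0718) and Hoxb4 and Hoxc4 without shCBX7 1/2 or shCBX8 1/6 (adjusted p = 0.0525 to 0.0721).

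Other developmental transcription factors moved in both directions. Of 96 listed, 82 were tested, 23 fell and 14 rose (median -0.60), against 13.3% lower and 15.3% higher of all genes tested. The share that rose was near that of all genes. Foxc1, a forkhead factor of mesenchyme, was at 26.5, 30.5 and 25.2 CPM in shCBX8 and 77.2, 80.3 and 77.9 CPM in shCBX7 (-1.52, SE 0.20, adjusted p = 0.00267), and the shCTR libraries held 73.6 to 121 CPM. Irx1, an Iroquois homeobox gene, measured 1.76, 3.46 and 1.35 against 19.1, 18.9 and 15.6 CPM (-3.03, SE 0.42, adjusted p = 0.00298), and Meox2, a homeobox gene of somites and vessels, 0.0210, 0.0902 and 0.0860 against 1.64, 4.84 and 3.97 CPM (-5.69, SE 0.76, adjusted p = 0.00276). The calls of these 3 held whichever library was left out. Falls numbered 9 to 15 without shCBX7 1/2 or shCBX8 1/6 and 36 without shCBX8 2, and rises 2 to 8 without shCBX7 1/2 or shCBX8 1/6.

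Epithelial genes were higher in shCBX8. Of 31 junction genes, 10 rose (median 2.60), and 26 were higher without overlap, against 25.6% of all genes tested. Cldn1, a claudin of tight junctions, was at 416, 241 and 404 CPM in shCBX8 and 49.4, 27.1 and 107 CPM in shCBX7 (2.53, SE 0.55, adjusted p = 0.0117). Cdh3, P-cadherin, was at 62.6, 35.1 and 76.4 against 1.77, 1.49 and 10.01 CPM (3.71, SE 0.85, adjusted p = 0.0141). Both were lowest in shCBX8 2 among the shCBX8 libraries and highest in shCBX7 5 among the shCBX7 libraries. Marveld2, which encodes tricellulin of contacts where several cells meet, measured 21.9, 12.2 and 28.6 against 1.73, 0.475 and 5.09 CPM (3.10, SE 0.80, adjusted p = 0.0211), and Cldn8 was called at low levels, 0.859, 0.331 and 0.796 against 0.0421, 0 and 0.0713 CPM. Rises numbered 3 to 6 without shCTR 1/5 or shCBX7 1/2 or shCBX8 1/6 and 17 to 25 without shCTR 2 or shCBX7 5. Leaving out 1 library ended the call of Marveld2 without shCBX7 1 or shCBX8 1/6 (adjusted p = 0.0615 to 0.0738).

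The promoters of called junction genes are shown with E-boxes of the form CACCTG marked. Repressors of epithelial genes, such as SNAI2 and ZEB1, bind such E-boxes, and their part in these rises was not tested. RefSeq (build GRCm38.p6) gave an entry for 5 of the 10 called genes, each covering 250 bases before to 50 after the gene's start, 5′ to 3′ on the gene's strand, which is the minus strand in all 5. Capitals mark CACCTG on either strand (CAGGTG on the other). Of the 27025 promoters of the same length in this set, 20.03% hold it. Cldn1 has no match, Marveld2, Tjp3 and Ocln have 1 each, and Cldn4 has 2. Of the 31 listed junction genes 16 had an entry, and those not called were not compared. The matches therefore cannot show whether called junction genes differ from the others. A match is a description of letters and not of binding.
Cldn1, chr16:26371790-26372089: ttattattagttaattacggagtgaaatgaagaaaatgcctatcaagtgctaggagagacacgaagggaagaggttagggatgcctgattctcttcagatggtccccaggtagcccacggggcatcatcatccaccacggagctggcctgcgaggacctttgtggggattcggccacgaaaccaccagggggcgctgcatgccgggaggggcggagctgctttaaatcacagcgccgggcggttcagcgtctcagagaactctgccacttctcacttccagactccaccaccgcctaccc
Marveld2, chr13:100616922-100617221: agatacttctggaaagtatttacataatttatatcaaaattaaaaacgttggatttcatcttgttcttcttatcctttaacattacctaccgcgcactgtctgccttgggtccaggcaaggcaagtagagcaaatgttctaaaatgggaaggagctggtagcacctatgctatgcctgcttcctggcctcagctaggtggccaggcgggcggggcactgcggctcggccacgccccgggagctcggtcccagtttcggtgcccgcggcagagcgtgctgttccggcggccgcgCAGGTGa
Tjp3, chr10:81291532-81291831: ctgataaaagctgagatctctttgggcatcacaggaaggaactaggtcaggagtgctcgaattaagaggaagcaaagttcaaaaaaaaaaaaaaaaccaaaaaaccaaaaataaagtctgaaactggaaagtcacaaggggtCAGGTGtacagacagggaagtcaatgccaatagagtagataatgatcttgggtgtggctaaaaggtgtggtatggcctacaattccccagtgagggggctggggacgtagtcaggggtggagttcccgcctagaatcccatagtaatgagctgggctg
Ocln, chr13:100552669-100552968: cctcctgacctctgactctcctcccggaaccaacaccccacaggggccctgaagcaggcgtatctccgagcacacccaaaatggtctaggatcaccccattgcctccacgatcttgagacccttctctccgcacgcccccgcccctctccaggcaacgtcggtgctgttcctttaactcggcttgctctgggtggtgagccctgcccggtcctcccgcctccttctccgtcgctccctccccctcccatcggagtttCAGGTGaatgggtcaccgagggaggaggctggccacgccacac
Cldn4, chr5:134946885-134947184: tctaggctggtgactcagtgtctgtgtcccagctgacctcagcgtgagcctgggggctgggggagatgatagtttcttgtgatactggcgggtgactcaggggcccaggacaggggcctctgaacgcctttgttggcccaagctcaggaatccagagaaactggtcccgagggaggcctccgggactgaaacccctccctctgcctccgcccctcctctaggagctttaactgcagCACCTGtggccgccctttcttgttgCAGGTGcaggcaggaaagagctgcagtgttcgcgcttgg

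The last 3 of these genes were named for their promoter entry, after their values were seen. Cldn4 was at 797, 397 and 1122 CPM in shCBX8 and 49.9, 11.4 and 189 CPM in shCBX7 (3.21, adjusted p = 0.0407), Ocln at 82.03, 32.9 and 88.5 against 6.02, 1.37 and 18.5 CPM (2.97, adjusted p = 0.0378) and Tjp3, a scaffold of tight junctions, at 32.9, 17.2 and 37.7 against 2.42, 0.356 and 7.18 CPM (3.14, adjusted p = 0.0312). In each, shCBX7 2 was the lowest and shCBX7 5 the highest shCBX7 library. With 1 library left out, the call ended for Cldn4 and Ocln without shCTR 1/5 or shCBX7 1/2 or shCBX8 1/6 (adjusted p = 0.0536 to 0.123) and Tjp3 without shCBX7 1 or shCBX8 1/6 (adjusted p = 0.0851 to 0.0995).

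Of 17 epithelial keratins, 4 rose (median 2.01), although 15 of the 17 were higher without overlap, against 25.6% of all genes tested. The abundant simple keratin pair lay just outside the threshold. Krt8 measured 3695, 1592 and 4103 CPM in shCBX8 and 254, 35.6 and 744 CPM in shCBX7 (3.18, adjusted p = 0.0551), and its partner Krt18 4721, 1892 and 5688 against 305, 40.2 and 847 CPM (3.37, adjusted p = 0.0531). Both were called higher in DESeq2 (adjusted p = 0.00350 and 0.00264), without shCBX8 2 (adjusted p = 0.0479 and 0.0443), without shCBX7 5 (adjusted p = 0.0339 and 0.0378), without shCTR 2, without replicate 2 of every group and with no filter on low counts. Within shCBX7 the lowest Krt18 value was 40.2 CPM, in shCBX7 2, and the highest 847 CPM, in shCBX7 5. Krt80 (3.03, adjusted p = 0.0376), Krt20 (2.14, adjusted p = 0.0157) and the basal keratin Krt15 (3.23 (adjusted p = 0.0378), or 5.05 without shCBX7 5 and 1.99 without shCBX8 2) joined Krt17 among the calls. Keratin rises numbered 0 to 2 without shCTR 1/5 or shCBX7 1/2 or shCBX8 1/6 and 7 to 8 without shCTR 2 or shCBX7 5. Of 21 tested regulators of epithelial identity, 7 rose (median 2.42). Rises numbered 1 to 2 without shCBX7 1/2 or shCBX8 1/6 and 18 without shCBX7 5. Trp63, the p63 gene of basal cells, was at 13.7, 7.91 and 14.96 CPM in shCBX8 and 1.62, 2.08 and 2.95 CPM in shCBX7 (2.46, SE 0.46, adjusted p = 0.00741). The ETS factor Ehf (2.49 (adjusted p = 0.0266), or 3.79 without shCBX7 5) and the membrane protein gene Prom1 (2.90, adjusted p = 0.0198) rose as well. Calls that did not survive leaving out 1 library were those of Krt80 without shCTR 1/5 or shCBX7 1/2 or shCBX8 1/6 (adjusted p = 0.0546 to 0.115), Krt20 and Prom1 without shCBX7 1/2 or shCBX8 1/6 (adjusted p = 0.0501 to 0.0728), Krt15 without shCTR 1/5 or shCBX7 1/2 or shCBX8 1/2/6 (adjusted p = 0.0545 to 0.112) and Ehf without shCBX7 1 or shCBX8 1/6 (adjusted p = 0.0725 to 0.0882).

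Mesenchymal transition factors and cadherins were lower in shCBX8. Of 14 members, 8 fell (median -1.50). Tcf4, a basic helix-loop-helix factor, was at 88.3, 155 and 77.6 CPM in shCBX8 and 567, 374 and 419 CPM in shCBX7 (-2.08, SE 0.27, adjusted p = 0.00272). Snai2, the repressor SLUG, measured 3.73, 11.1 and 3.14 against 25.1, 23.7 and 17.9 CPM (-1.89, SE 0.44, adjusted p = 0.0151), and Zeb1, a zinc-finger repressor, 42.5, 88.7 and 32.5 against 143, 152 and 102 CPM (-1.28, SE 0.33, adjusted p = 0.0216). In all 3, shCBX8 2 was the highest shCBX8 library. Cdh11, a mesenchymal cadherin, measured 71.6, 387 and 47.6 against 1433, 2047 and 768 CPM (-3.07, SE 0.77, adjusted p = 0.0186). Falls numbered 1 to 4 without shCBX7 1 or shCBX8 1/6. When libraries were left out singly, the threshold was missed by Snai2 and Cdh11 without shCBX8 1/6 (adjusted p = 0.0523 to 0.0705) and Zeb1 without shCBX7 1/2 or shCBX8 1/6 (adjusted p = 0.0551 to 0.0877).

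Extracellular matrix genes were mostly lower. Of 26 collagen genes, 9 fell and 2 rose (median -2.11). The pair that encodes the network collagen of basement membranes varied little within groups. Col4a1 was at 177, 203 and 157 CPM in shCBX8 and 1044, 943 and 1015 CPM in shCBX7 (-2.48, SE 0.21, adjusted p = 0.00133), and Col4a2 at 91.9, 98.97 and 74.1 against 469.9, 414 and 409 CPM (-2.29, SE 0.22, adjusted p = 0.00157). In both genes shCBX8 2 lay close to the other shCBX8 libraries and far below every shCBX7 and shCTR library. Col5a2, of the fibril-regulating type V, measured 60.97, 218 and 68.5 against 886, 2335 and 1091 CPM (-3.63, SE 0.72, adjusted p = 0.00887), and Col11a1 5.68, 12.2 and 6.41 against 81.9, 249 and 89.3 CPM (-4.12, SE 0.76, adjusted p = 0.00695). Collagen falls numbered 4 to 5 without shCBX8 1/6 and 18 without shCBX8 2, and rises 0 to 1 without shCBX7 1/2/5 or shCBX8 1/6. The calls of these 4 genes held whichever library was left out.

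Of 36 genes of elastic fibres, proteoglycans and matricellular proteins, 13 fell and 1 rose (median -2.11). Falls numbered 1 to 5 without shCBX7 1/2 or shCBX8 1/6, and rises 0 without shCBX7 1 or shCBX8 1/6. Prelp, a leucine-rich proteoglycan, was at 0.0629, 0.361 and 0.129 CPM in shCBX8 and 2.21, 4.07 and 9.27 CPM in shCBX7 (-4.86, SE 0.76, adjusted p = 0.00422). Fbn2, a microfibril protein (-3.81, adjusted p = 0.0158), Ltbp4, which tethers latent TGF-beta (-2.68, adjusted p = 0.0165), and the large proteoglycan Vcan (-2.65, adjusted p = 0.0186) fell as well. Of 26 genes of matrix proteases and their inhibitors, 7 fell and 3 rose, against 13.3% lower and 15.3% higher of all genes tested. Falls there numbered 4 without shCBX7 2 or shCBX8 1/6 and 15 without shCBX8 2, and rises 0 to 1 without shCBX7 1 or shCBX8 1/6. Serpine2, an inhibitor of thrombin and plasminogen activators, measured 235, 293 and 199 against 1064, 761 and 1422 CPM (-2.16, SE 0.27, adjusted p = 0.00260), and the protease genes Adamts12 (-2.94, adjusted p = 0.00272), Adamts9 (-2.55, adjusted p = 0.00732) and the procollagen processing enzyme Adamts2 (-3.57, adjusted p = 0.0115) fell. Leaving out 1 library ended the call of Fbn2, Ltbp4 and Vcan without shCBX8 1/6 (adjusted p = 0.0570 to 0.0768).

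Marker lists of the cell types that such a culture could hold moved with these groups. The summed level of 22 fibroblast markers was 1558 to 7552 CPM in shCBX8, 13094 to 25326 CPM in shCBX7 and 11368 to 41133 CPM in shCTR. Of the 22 tested (median -2.13), 13 were lower without overlap, against 22.6% of all genes tested. Past the threshold 4 of the 22 fell, against 13.3% of all genes tested. These were Vim, the microfibril gene Fbn1 (-3.29 (adjusted p = 0.0404), or -5.64 without shCBX8 2) and the collagen genes Col5a1 (-1.94, adjusted p = 0.0263) and Col6a3 (-2.42, adjusted p = 0.0124). Pdgfra, the receptor that marks fibroblasts, was named after its values were seen: it stood at 24.3, 540.1 and 10.8 CPM in shCBX8 and 1038, 2889 and 888 CPM in shCBX7 and did not pass (-3.07, adjusted p = 0.109). The shCBX8 2 value lay far above those of shCBX8 1 and 6, and without shCBX8 2 the gene was called lower (-6.53, adjusted p = 0.00277), as it was without replicate 2 of every group (-5.79, adjusted p = 0.000434). Falls numbered 0 to 2 without shCBX7 1/2 or shCBX8 1/6 and 15 without shCBX8 2. Single libraries decided the call of Fbn1 without shCTR 1/5/6 or shCBX7 1/2/5 or shCBX8 1/6 (adjusted p = 0.0518 to 0.109), Col5a1 without shCBX7 2 or shCBX8 1/6 (adjusted p = 0.0671 to 0.0987), Col6a3 without shCBX8 1/6 (adjusted p = 0.0515 to 0.0540) and Vim without shCBX7 1 or shCBX8 1/6 (adjusted p = 0.0688 to 0.0990). The part of fibroblast content in the matrix and transition-factor differences was not tested.

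A few abundant keratins and Ltf made up much of the summed level of epithelial cell markers. Horizontal basal cell markers summed to 4491 to 7552 CPM in shCBX8 and 1474 to 3146 CPM in shCBX7, and 6 of 16 rose (median 1.99). Without Krt17 the sums overlapped, at 2533 to 2783 against 1444 to 2637 CPM. Without Krt17 and Dst they did not, at 2123 to 2200 against 755 to 1921 CPM. Besides Trp63, Krt15 and Krt17 the rises included Pax6, a paired-box factor of the placodes (52.03, 21.7 and 69.7 against 3.18, 0.653 and 10.3 CPM, 3.34, adjusted p = 0.0229), and Sox2, a factor of epithelial progenitors (50.1, 28.1 and 68.5 against 3.77, 0.564 and 12.6 CPM, 3.11, adjusted p = 0.0399). Krt5, the defining keratin of these cells, was named after its values were seen and did not pass (278, 219.8 and 333 against 43.2, 11.8 and 151 CPM, 2.01 (adjusted p = 0.228), or 3.32, adjusted p = 0.110 without shCBX7 5). Sustentacular markers summed to 4032 to 10920.5 against 474 to 2316 CPM, yet 0 of 13 tested passed edgeR's test (median 1.46), with 4 higher at an unadjusted p under 0.05, 2 higher in DESeq2. Without Krt8 and Krt18 the sums overlapped, at 549 to 1129 against 295 to 725 CPM. Rises in this list numbered 2 to 10 without shCTR 2 or shCBX7 5 or shCBX8 2. Bowman gland markers summed to 1560.4 to 2525 against 60.1 to 678 CPM, where 1 of 7 tested members rose, Ltf (0 without shCTR 1/5/6 or shCBX7 1 or shCBX8 1/2/6 and 3 to 4 without shCTR 2 or shCBX7 5). Without Ltf the sums were 382 to 953 against 46.9 to 269.8 CPM and did not overlap. Bpifb9a was at 0 in all 6 libraries. Horizontal basal cell rises numbered 1 to 3 without shCTR 5 or shCBX7 1/2 or shCBX8 1/6. Calls that did not survive leaving out 1 library were those of Pax6 without shCBX7 1 or shCBX8 1/6 (adjusted p = 0.0660 to 0.0791) and Sox2 without shCTR 1/5 or shCBX7 1/2 or shCBX8 1/6 (adjusted p = 0.0574 to 0.120).

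Respiratory and ciliated cell markers summed to 195 to 376 CPM in shCBX8 and 61.8 to 235 CPM in shCBX7, and 7 of 13 tested rose (and 3 to 4 without shCBX7 1/2 or shCBX8 1/6). The axonemal dynein heavy chain genes Dnah5, at 2.83, 2.56 and 8.97 against 0.716, 0.238 and 0.761 CPM (3.05, adjusted p = 0.00786), and Dnah9 (1.74 (adjusted p = 0.0147), or 1.13 without shCBX8 6), and the cilium assembly gene Ccdc40, at 3.39, 3.16 and 4.99 against 0.695, 0.921 and 1.26 CPM (2.002, adjusted p = 0.00636), were among them, all at low levels. The secretory marker Scgb3a1 was at 0 in all 6 libraries. Without Cyp2f2, the most abundant of the list, the sums overlapped, at 76.04 to 117 against 55.8 to 78.1 CPM. Without Cyp2f2 and Cfap43 they did not, at 40.7 to 100.2 against 14.1 to 24.3 CPM. Globose basal cell and progenitor markers overlapped in sum (241 to 283 against 228 to 262 CPM). Of 11 tested, 4 rose, against 15.3% of all genes tested, and 1 fell, Mki67 (rises 2 without shCBX7 1/2 or shCBX8 1/6, falls 0 without shCTR 5/6 or shCBX7 1/2/5 or shCBX8 1/6 and 2 without shCBX8 2). Hes6, a factor of neuronal progenitors, was at 58.1, 36.05 and 75.6 against 21.9, 22.5 and 27.1 CPM (1.25, SE 0.24, adjusted p = 0.00786), and Gadd45g at 52.6, 28.98 and 67.6 against 3.98, 12.1 and 15.2 CPM (2.25, SE 0.48, adjusted p = 0.0106). Of 13 tested immature neuron markers 3 fell (1 without shCBX8 1/6 and 6 without shCBX8 2), with Ncam1 at 19.7, 29.5 and 22.9 against 77.6, 80.5 and 83.7 CPM (-1.75, SE 0.24, adjusted p = 0.00283), Ebf1 (-2.35, adjusted p = 0.0161) and Dpysl3 (-1.21, adjusted p = 0.0180). These 3 are also expressed outside neurons. Mature olfactory neurons were hardly represented: 11 of 14 markers were under 1 CPM in all 6 libraries, Omp, their defining marker, at 0.210 to 0.366 CPM in shCBX8 and 0.0891 to 0.404 CPM in shCBX7. Of the 6 that were tested 2 rose (0 to 1 without shCTR 1/2/5 or shCBX7 1/2 or shCBX8 1/6), Gnal (1.03 (adjusted p = 0.0444), or 0.12, adjusted p = 0.667 with unstranded counts) and Gng13 (3.04, adjusted p = 0.0195). When libraries were left out singly, the threshold was missed by Dnah9 without shCBX7 1 (adjusted p = 0.0538), Ebf1 and Dpysl3 without shCBX8 1/6 (adjusted p = 0.0641 to 0.0753), Gnal without shCTR 1/2/5/6 or shCBX7 1/2 or shCBX8 1/6 (adjusted p = 0.0521 to 0.144) and Gng13 without shCBX7 1/2 or shCBX8 1/6 (adjusted p = 0.0557 to 0.0732).

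Markers of other stromal cells were mixed. Immune cell markers summed to 102 to 180.1 CPM in shCBX8 and 18.1 to 65.8 CPM in shCBX7. Cd14, the lipopolysaccharide co-receptor, made up most of that in shCBX8, at 159, 91.2 and 137 against 23.1, 13.5 and 32.2 CPM (2.49, SE 0.32, adjusted p = 0.00267), and 8 of 14 markers were under 1 CPM in all 6. Of 10 tested 3 rose (6 without shCBX7 5). Ensheathing and Schwann cell markers summed lower without overlap (115 to 135 against 140.4 to 176 CPM), with Mbp (19.7, 17.4 and 23.05 against 4.72, 5.82 and 8.44 CPM, 1.66, SE 0.26, adjusted p = 0.00422) and the crest factors Foxd3 (3.25, adjusted p = 0.0131) and Sox10 (2.94, adjusted p = 0.0255) higher (1 without shCBX8 6) and S100b lower (-2.41, adjusted p = 0.0408). Frzb was the most abundant of the list over the 6 libraries together, but not most of the sum in every shCBX8 library. Without it the sums overlapped, at 63.1 to 133 CPM in shCBX8 against 20.1 to 76.4 CPM in shCBX7. Smooth muscle and pericyte markers summed to 2069 to 6164 against 667 to 1418 CPM, and their calls were split (0 to 1 without shCTR 1/5 or shCBX7 1/2/5 or shCBX8 1/6 for rises, 1 without shCBX8 1/6 for falls), with Mcam (2.89, adjusted p = 0.0241) and Cnn1 (4.19, adjusted p = 0.0480) higher and the pericyte genes Cspg4 (2.43, 4.96 and 5.61 against 53.5, 28.5 and 42.4 CPM, -3.26, adjusted p = 0.0105) and Abcc9 (-3.54, adjusted p = 0.0136) lower. Without Rgs5, the most abundant of them, the sums were 489 to 1197 against 228 to 350.2 CPM and did not overlap, and without Rgs5 and Mcam they did (223 to 536 against 157 to 330.2 CPM). Of 11 endothelial markers tested, 4 rose (1 to 2 without shCTR 1/5 or shCBX7 2/5 or shCBX8 1/6), such as Vwf at 2.35, 5.08 and 2.62 against 0.316, 0.297 and 0.642 CPM (2.98, adjusted p = 0.0104) and Tek (3.14, adjusted p = 0.0154), while the list's sum was 38.98 to 90.6 against 90.3 to 126 CPM. Of 4 microvillar markers tested, 1 fell, Avil (-1.38, adjusted p = 0.0157), and 10 of 12 in the files were under 1 CPM throughout. Leaving out 1 library ended the call of Foxd3 without shCBX8 6 (adjusted p = 0.0509), Sox10 and Mcam without shCBX7 1/2 or shCBX8 1/6 (adjusted p = 0.0607 to 0.0815), S100b without shCTR 5/6 or shCBX7 1/5 or shCBX8 1/2/6 (adjusted p = 0.0525 to 0.136), Cnn1 without shCTR 1/5 or shCBX7 1/2/5 or shCBX8 1/6 (adjusted p = 0.0523 to 0.135), Abcc9 without shCBX8 1/6 (adjusted p = 0.0519 to 0.0615), Tek without shCBX7 2 or shCBX8 6 (adjusted p = 0.0524 to 0.0551) and Avil without shCBX7 1 or shCBX8 1/6 (adjusted p = 0.0517 to 0.0704).

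**Figure D4:**
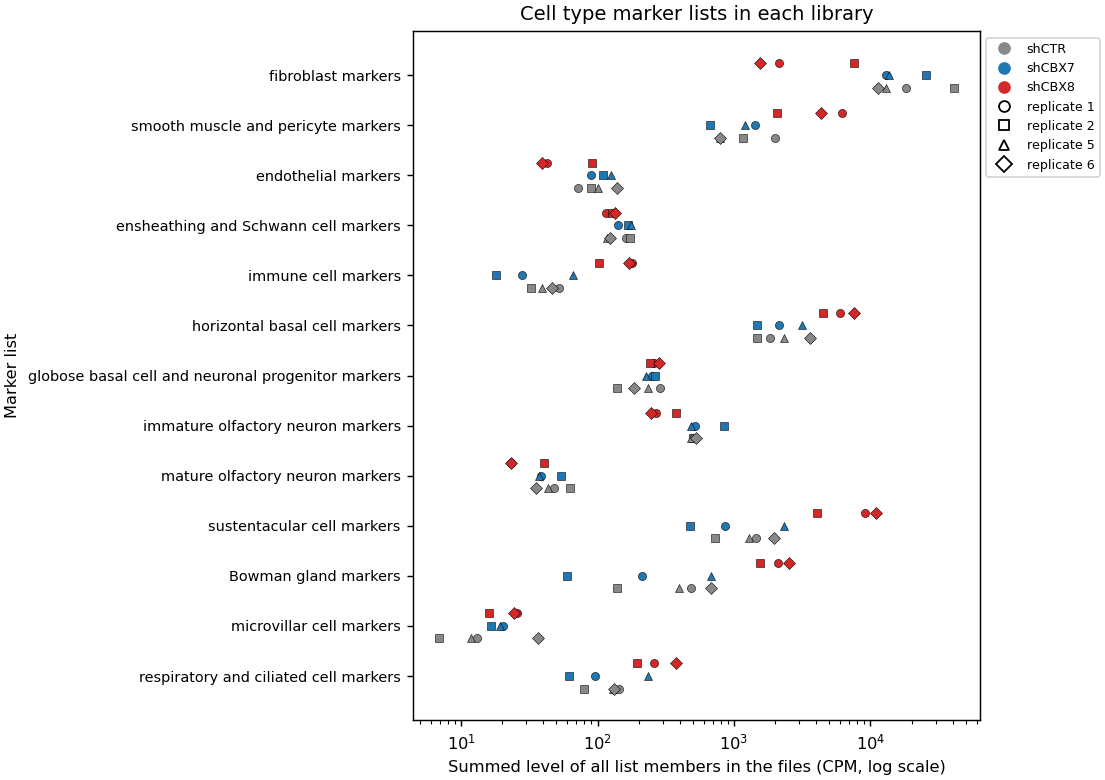
Summed level of each cell type marker list in each of the 10 libraries, in CPM on a log axis, 1 point per library. Fibroblast markers lie lower in shCBX8 (1558 to 7552 CPM) than in shCBX7 (13094 to 25326 CPM), sustentacular, Bowman gland and horizontal basal cell markers lie higher, sums that Krt8 and Krt18, Ltf and Krt17 lead, and shCBX8 2 is the shCBX8 library nearest to shCBX7 for the fibroblast list.

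The list of striated muscle genes holds Acta1 and Mybpc2, which are counted here again. Of 37 listed, 20 passed the filter, so the counts describe those alone. Of the 20, 7 rose, against 15.3% of all genes tested (median 0.81, and 3 to 4 without shCBX7 1/2 or shCBX8 1/6). Without overlap 7 were higher and 2 lower, against 25.6% and 22.6% of all genes tested. Mylpf, a fast myosin light chain, was at 2.98, 1.71 and 2.67 CPM in shCBX8 and 0.548, 0.386 and 0.428 CPM in shCBX7 (2.42, SE 0.39, adjusted p = 0.00461), and Tnnc1, the slow and cardiac troponin C, at 3.27, 2.62 and 3.59 against 1.39, 1.43 and 1.19 CPM (1.24, SE 0.26, adjusted p = 0.0108). The list's summed level, which widely expressed members dominate, overlapped at 1626 to 2502 against 1372 to 2201 CPM. With 1 library left out, the call ended for Tnnc1 without shCBX8 6 (adjusted p = 0.0501).

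Signalling genes moved in both directions. In the FGF, PDGF and IGF list 7 of 27 tested fell and 2 rose (median -1.43). Among ligands, Fgf9 rose (9.83, 3.01 and 10.6 against 0.506, 0.149 and 1.45 CPM, 3.46, adjusted p = 0.0140) and Igf2 fell. The receptor gene Fgfr1 measured 53.7, 114 and 55.3 against 296, 357 and 315 CPM (-2.12, SE 0.31, adjusted p = 0.00343), and the binding protein gene Igfbp7 22.96, 22.3 and 18.1 against 95.03, 105 and 81.5 CPM (-2.15, adjusted p = 0.0140). In the TGF-beta and BMP list 8 of 32 fell and 3 rose (median -0.87). The ligand gene Tgfb2 (1.93, adjusted p = 0.0143) and Fst, whose product follistatin traps activin (164, 164 and 113 against 30.8, 51.7 and 75.3 CPM, 1.48, SE 0.31, adjusted p = 0.0101), rose. Bmp5 fell (0.398, 0.421 and 0.236 against 11.7, 5.76 and 0.713 CPM, -4.10, adjusted p = 0.0146). Falls numbered 2 to 4 without shCBX7 1/2 or shCBX8 1/6 and 12 without shCBX8 2 in the first list and 1 to 5 without shCBX7 1 or shCBX8 1/6 in the second, and rises 0 to 1 without shCTR 1/5 or shCBX7 1/2 or shCBX8 1/6 in the first and 1 without shCBX7 2 or shCBX8 1/6 in the second. Calls that did not survive leaving out 1 library were those of Fgf9 without shCBX7 1 or shCBX8 6 (adjusted p = 0.05004 to 0.0532), Igfbp7 and Bmp5 without shCBX8 1/6 (adjusted p = 0.0520 to 0.0649) and Tgfb2 without shCBX7 2 or shCBX8 1/6 (adjusted p = 0.0511 to 0.0563).

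Of 25 tested Wnt genes, 3 rose (1 without shCBX7 1/2 or shCBX8 1/6 and 5 without shCBX7 5) and 3 fell (10 without shCBX8 2). The ligand gene Wnt5a was at 30.6, 62.3 and 33.2 CPM in shCBX8 and 119, 205 and 146 CPM in shCBX7 (-1.90, SE 0.39, adjusted p = 0.0101), and the secreted inhibitor gene Wif1 at 0.0838, 0 and 0.0860 against 1.52, 1.22 and 0.666 CPM (-4.15, adjusted p = 0.00578). Rnf43 (7.35, 3.85 and 10.7 against 0.421, 0.505 and 1.76 CPM, 3.02, SE 0.63, adjusted p = 0.0104) and Znrf3 (0.91, adjusted p = 0.0179), whose products remove Frizzled receptors from the membrane, rose. In the Notch pathway 2 of 18 rose (1 without shCTR 1/2/5/6 or shCBX7 1/2 or shCBX8 1/6) and 1 fell (0 without shCTR 1/5/6 or shCBX7 2/5 or shCBX8 1/6), shares below those of all genes. In the EGF and ERK list 1 of 28 rose, Ier3, an early response gene, at 399, 319 and 445 against 107, 81.1 and 143 CPM (1.81, SE 0.21, adjusted p = 0.00225), and 1 fell, Egr1 (-2.25 (adjusted p = 0.0453), or -1.22 without shCBX7 5), with falls at 0 without shCTR 1/5/6 or shCBX7 1/5 or shCBX8 1/6 and 2 to 6 without shCTR 2 or shCBX8 2 and rises at 2 without shCBX7 5. Among chemokines and inflammatory genes 6 of 30 rose and 3 fell, against 15.3% higher and 13.3% lower of all genes tested. Besides Ccl20 the rises included Cxcl16, a membrane-bound chemokine (220.01, 111 and 188 against 33.01, 25.3 and 67.9 CPM, 2.04, SE 0.41, adjusted p = 0.00902), and the IL-1 family cytokine Il18 (28.5, 18.5 and 27.1 against 6.64, 5.14 and 11.7 CPM, 1.66, SE 0.30, adjusted p = 0.00680). The chemokine and inflammatory rises numbered 2 without shCBX7 1 or shCBX8 1/6 and the falls 0 to 1 without shCTR 5 or shCBX7 1/2 or shCBX8 1/6 and 7 without shCBX8 2. When libraries were left out singly, the threshold was missed by Znrf3 without shCBX7 1/2 or shCBX8 1/6 (adjusted p = 0.0586 to 0.0787) and Egr1 without shCTR 1/5/6 or shCBX7 1/5 or shCBX8 1/6 (adjusted p = 0.0560 to 0.167).

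Mitosis genes lay lower without overlap in most members, while few passed the test. Of 36 mitosis genes, 33 were lower in all shCBX8 than in all shCBX7 libraries, against 22.6% of genes tested, while 2 passed (median -1.14). These were the proliferation marker Mki67 (15.1, 26.9 and 4.13 against 53.2, 56.4 and 45.96 CPM, -1.76, adjusted p = 0.0494) and the chromosomal passenger subunit Incenp (6.22, 10.4 and 5.59 against 14.7, 15.8 and 13.03 CPM, -0.97, adjusted p = 0.0243). The list's summed level was 332 to 690.3 CPM in shCBX8, 847 to 1034 CPM in shCBX7 and 444 to 1132 CPM in shCTR. Falls numbered 0 to 1 without shCTR 5/6 or shCBX7 1/2/5 or shCBX8 1/6 and 12 to 20 without shCTR 2 or shCBX8 2. Of 35 S phase genes, 1 fell, the clamp loader subunit Rfc4 (6.18, 6.92 and 5.63 against 10.5, 9.36 and 10.98 CPM, -0.72, adjusted p = 0.0462), with a median of -0.20 and sums of 740.4 to 879 against 786 to 935 CPM. S phase falls numbered 0 without shCBX7 1/2/5 or shCBX8 1/6 and 2 to 7 without shCTR 6 or shCBX8 2. Leaving out 1 library ended the call of Mki67 without shCTR 5/6 or shCBX7 1/2/5 or shCBX8 1/6 (adjusted p = 0.0606 to 0.139), Incenp without shCBX7 1/2 or shCBX8 1/6 (adjusted p = 0.0591 to 0.0976) and Rfc4 without shCBX7 1/2/5 or shCBX8 1/6 (adjusted p = 0.0631 to 0.148).

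Stress response genes moved in both directions. Of 27 genes of the integrated stress and unfolded protein responses, 6 rose and 1 fell (median -0.14, falls 0 without shCBX7 1/2 or shCBX8 1/6 and 2 to 5 without shCTR 2/6 or shCBX8 2). Of all genes tested, 15.3% were higher and 13.3% lower. Without overlap 8 of the 27 were higher and 6 lower. Atf3, a stress-induced transcription factor, was at 63.03, 46.3 and 74.97 CPM in shCBX8 and 4.59, 1.84 and 8.87 CPM in shCBX7 (3.59, SE 0.62, adjusted p = 0.00578). Chac1, which degrades glutathione, was at 24.5, 24.7 and 28.4 against 4.11, 2.82 and 5.83 CPM (2.60, SE 0.31, adjusted p = 0.00225), and Ddit3, which encodes CHOP, at 64.95, 76.6 and 73.2 against 41.98, 41.4 and 43.6 CPM (0.76, SE 0.15, adjusted p = 0.00889). In these 3 genes shCBX8 2 lay among or near the other shCBX8 libraries. Ppp1r15a, the phosphatase subunit that reverses the eIF2alpha mark, rose too (0.95, adjusted p = 0.0120). Of 22 p53 targets, 7 fell, among them Cdkn1a, the BH3-only gene Bbc3 (13.5, 14.8 and 14.5 against 32.6, 35.6 and 37.5 CPM, -1.31, adjusted p = 0.0166) and Ei24 (-1.04, adjusted p = 0.0128), and 3 rose, among them the ribonucleotide reductase subunit Rrm2b (77.7, 48.8 and 71.1 against 32.5, 31.3 and 34.6 CPM, 1.005, SE 0.18, adjusted p = 0.00655). Falls among them numbered 1 to 3 without shCBX8 1/6, and rises 1 without shCBX7 1/2 or shCBX8 1/6. Of 32 interferon-stimulated genes 0 passed edgeR's test (median -0.71), while 1 was higher and 3 lower at an unadjusted p under 0.05, and DESeq2 called 3 lower. Without shCBX8 2, 24 fell. In that library the list summed to 7510.1 CPM, against 2376 and 2017 CPM in shCBX8 1 and 6. Single libraries decided the call of Ppp1r15a without shCBX7 1 or shCBX8 6 (adjusted p = 0.0502 to 0.0541), Bbc3 without shCBX8 1/6 (adjusted p = 0.0610 to 0.0666) and Ei24 without shCBX8 6 (adjusted p = 0.0584).

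In metabolism, 9 of 30 genes of sterol and fatty acid synthesis fell (median -0.58), while the summed level overlapped between the groups (3108 to 4567 CPM in shCBX8 and 4294 to 5539.9 CPM in shCBX7). Falls numbered 1 to 4 without shCBX7 1/2 or shCBX8 1/6 and 17 without shCBX8 2. Srebf2, the regulator of sterol genes, was at 29.4, 50.4 and 28.5 CPM in shCBX8 and 89.3, 69.7 and 88.6 CPM in shCBX7 (-1.19, SE 0.24, adjusted p = 0.00975), with Srebf1 (-0.72, adjusted p = 0.0154), the cholesterol carrier Stard4 (-1.31, adjusted p = 0.0180) and the mevalonate decarboxylase Mvd (-1.50, adjusted p = 0.0194) lower too. Of 30 antioxidant genes 7 rose and 1 fell, against 15.3% higher and 13.3% lower of all genes tested. Rises numbered 1 to 4 without shCTR 5 or shCBX7 1/2 or shCBX8 1/6, and falls 2 to 4 without shCTR 2/6 or shCBX8 2. Prdx6, a peroxiredoxin, was at 392, 381 and 360.4 against 164, 189 and 173 CPM (1.11, SE 0.19, adjusted p = 0.00551), and Taldo1 of the pentose phosphate pathway rose (0.995, adjusted p = 0.0173), while Gstm1, which has close paralogs, was at 23.3, 37.6 and 34.8 against 67.5, 77.6 and 139 CPM (-1.57, SE 0.28, adjusted p = 0.00645). The shCTR libraries held 90.8 to 149 CPM of Prdx6, below shCBX7. Calls that did not survive leaving out 1 library were those of Srebf1 without shCBX8 1/6 (adjusted p = 0.0570 to 0.0583), Stard4 and Mvd without shCBX7 1 or shCBX8 1/6 (adjusted p = 0.0536 to 0.0805) and Taldo1 without shCBX7 2 or shCBX8 1/6 (adjusted p = 0.0647 to 0.0693).

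Glycolysis and hypoxia-response genes had 4 rises and 6 falls among 29 (rises 0 to 1 without shCBX7 1/2 or shCBX8 1/6, falls 0 to 3 without shCTR 5 or shCBX7 1/2/5 or shCBX8 1/6). Of 32 lysosomal genes 3 rose and 6 fell (11 without shCBX8 2). The sialidase gene Neu1 was at 115, 105 and 139 CPM in shCBX8 and 44.7, 48.3 and 37.5 CPM in shCBX7 (1.46, SE 0.17, adjusted p = 0.00225), and the beta-glucuronidase gene Gusb at 159, 146 and 178 against 82.2, 91.1 and 84.5 CPM (0.91, SE 0.13, adjusted p = 0.00298). Scarb2, which carries glucocerebrosidase to lysosomes, measured 106, 168 and 110.3 against 415, 427 and 267 CPM (-1.53, SE 0.24, adjusted p = 0.00445), and the acid lipase gene Lipa 48.3, 67.02 and 50.5 against 101, 116 and 94.04 CPM (-0.90, SE 0.14, adjusted p = 0.00445). Among 23 annexin, S100 and Ahnak genes 3 rose and 6 fell (rises 5 without shCBX7 5, falls 0 to 2 without shCBX7 1/5 or shCBX8 1/6). Beside Anxa1, the rises held S100a9, a subunit of calprotectin, at 5.07, 2.71 and 6.24 against 0.105, 0.0297 and 0.190 CPM (5.35, SE 0.74, adjusted p = 0.00298), and S100a11 (1.13, adjusted p = 0.0145). Anxa5, the annexin that binds phosphatidylserine, was at 396, 585 and 342 against 1351, 816 and 906 CPM (-1.22, adjusted p = 0.0170) and so moved against Anxa1. When libraries were left out singly, the threshold was missed by S100a11 without shCBX7 1/2 or shCBX8 1 (adjusted p = 0.0523 to 0.0607) and Anxa5 without shCBX7 1 or shCBX8 1/6 (adjusted p = 0.0544 to 0.0732). Across the 43 lists, a share near the 15.3% higher and 13.3% lower of all genes is no result about a list.

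**Figure D5:**
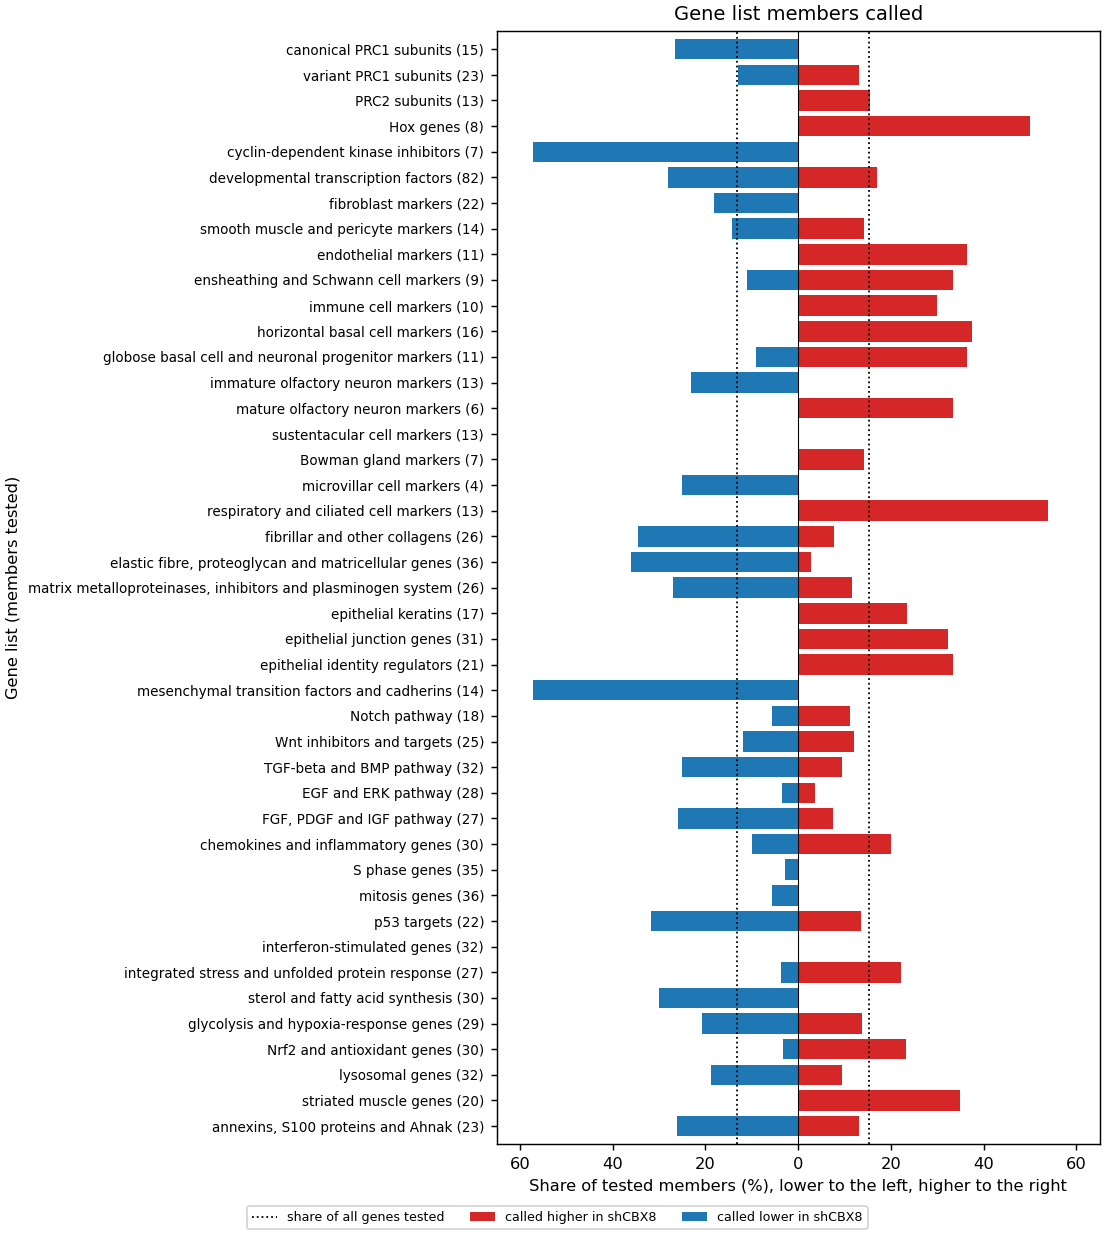
Share of tested members called higher (to the right) and lower (to the left) in shCBX8 for each of the 43 gene lists, in percent, with the number tested in brackets. Dotted lines mark the shares of all genes tested, 15.3% higher and 13.3% lower. The bars of the respiratory list (7 of 13) and of the Hox genes, of which 8 of 39 were tested, reach furthest to the right, and those of cyclin-dependent kinase inhibitors (4 of 7) and mesenchymal transition factors (8 of 14) furthest to the left.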

How the data were processed

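Gene expression was measured by stranded RNA sequencing in 10 libraries (4 shCTR, 3 shCBX7, 3 shCBX8). Per the labels' protocols, libraries were made from 500 ng of RNA with a kit that keeps strand. Per the submitters' processing notes, reads were handled with bcl2fastq 2.17, Trim Galore 0.4.3 and STAR 2.5.0a on mm10. Which gene annotation was counted is not stated there. The deposited values are whole-number read counts per gene in unstranded, forward and reverse columns, and the reverse column was used. Summary rows without a gene did not enter library sizes. Over the 10 libraries unmapped reads made up 5.03 to 21.7%, multimapping reads 15.4 to 22.1%, reads in no feature 12.5 to 23.6% and ambiguous reads 0.290 to 0.637%. Reads that map to several places are thus absent, which lowers genes with close copies.

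Symbols and positions came from GENCODE M21 (GRCm38), where 40217 of 41091 identifiers matched and 874 did not. In R 4.3.3, edgeR 4.0.16 with limma 3.58.1 was run with TMM scaling, filterByExpr (minimum count 10) and 1 quasi-likelihood fit over all 10 libraries with group as the only term, and the contrast shCBX8 minus shCBX7 was tested with Benjamini-Hochberg adjustment over 16669 genes at 0.05. The SE is the size of the log2 fold change over the square root of F. CPM was computed on the scaled library size. The procedure was tested on simulated data with known changes. Samples of 1 group differed from each other beyond sampling noise, and each counted as 1 replicate. Chi-square per degree of freedom was 25.5 between shCBX8 1 and 6 and 95.8 to 393 between the other pairs within a group. It cannot show whether samples were independent. Gene counts gave 31665704 to 50463172 reads in the 6 libraries compared. Their common biological coefficient of variation of 0.375, estimated over all 10, and not depth, sets most of the error of well-expressed genes.

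The comparison, the 43 gene lists and the markers were chosen with earlier results of these data known. Genes were named by rule: Cdkn2a and the CBX genes of PRC1, the 12 top rises and 12 top falls among called protein-coding genes averaging 5 CPM or more without overlap, the 6 most abundant called genes in each direction, the 3 largest changes in each direction among other genes, and in each list the up to 4 members of smallest p. Lists are described by counts and medians, with no test of the list. Alternatives were RLE scaling, library size only, other filters, DESeq2 1.42.0, unstranded counts, a fit over the 6 libraries, a replicate block, each library left out, replicate 2 left out of every group, removal of the 10 most abundant genes and a stricter threshold, 0.01. RefSeq promoters on chromosome 18 were left out. The others covered 11685 of 14760 protein-coding genes tested (79.2%), so no check of promoter composition over called genes was made. Protein sequences were not used here. A few genes that the rule names are not reported here.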

Additional observations from a re-analysis of the deposited data

Results flagged for a closer look

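Only the 4 shCTR libraries make a group large enough to ask whether 1 library stands apart from the other 3, and chance alone gives such a flag in about 1 of 20 groups. Of 170 genes checked, those printed with values in the report or below, 12 had 1 such library. Cbx6 was at 282.8 CPM in shCTR 2 and at 143.7 to 167 CPM in the other 3. Eln was at 31.6 CPM and Fibin at 114 CPM in shCTR 2, where the next values were 3.56 and 24.0 CPM. In the same library Ebf1 was at 77.2 CPM, against 28.0 to 33.3 CPM, Igfbp7 at 319.6 CPM, against 86.2 to 95.4 CPM, and Wnt5a at 319.3 CPM, against 146 to 160.4 CPM. In shCTR 1, Kng1 was at 1.98 CPM, against 0.691 to 0.852 CPM, S100a11 at 21.4 CPM, against 13.5 to 14.5 CPM, and Mtf2 at 46.4 CPM, against 43.2 to 43.5 CPM. In shCTR 6, Krt5 was at 335.9 CPM, against 8.37 to 50.4 CPM, and Xirp2 at 0.403 CPM, against 1.03 to 1.15 CPM. Mycn was at 15.3 CPM in shCTR 5, against 5.46 to 6.97 CPM. The shCTR libraries enter the shared estimate of the spread. For Eln, shCBX7 2 also stood far above the other shCBX7 libraries.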

How the results depend on the processing

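The number of genes called stayed within 1.5 times of 4762 with RLE scaling (4744), with library size only (4631), with all genes of at least 1 count (3905), with genes averaging 1 CPM or more (4077), in DESeq2 (6252), with unstranded counts (4804), a fit over the 6 libraries (3677), without replicate 2 of every group (5891) and without the 10 most abundant genes (4751). At a threshold of 0.01 it was 1350, with 717 higher and 633 lower, which follows from the stricter threshold. With 1 library left out it ran from 1784 (without shCBX8 6, where 1769 of those genes were among the 4762) to 6005 (without shCBX8 2). Leaving out 1 library left 2 in its group. With the replicate block 4661 genes passed, and 3766 of those were among the 4762. The labels do not say that a number marks a shared culture or day. Deviations of same-numbered libraries correlated at -0.08 to 0.69 over 8 pairs (0.13 and 0.33 for the pairs shared by shCBX7 and shCBX8). Libraries numbered 2 correlated at 0.69 (shCTR and shCBX7), 0.33 (shCBX7 and shCBX8) and 0.26 (shCTR and shCBX8). With other-numbered libraries of other groups they correlated at -0.51 to 0.01. Deviations from a group's own mean cancel out within that group, so the positive values push these others down. The 2 ranges are therefore not separate observations. Yet shCTR 6 correlated best with shCBX7 1 (0.47), and the main fit did not pair libraries by number. Whether replicate 2 marks a shared culture or day was not tested. Cbx8 stayed lower and called in every alternative run at the 0.05 threshold, with a log2 fold change of -1.47 to -1.17 (-1.36 with the block), and Cbx7 was never called, at 0.10 to 0.995 (adjusted p = 0.190 to 0.888).

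Of the 164 genes named with a fold change that were called, 78 lost the call without shCBX8 6, 74 without shCBX8 1, 49 without shCBX7 1, 37 without shCBX7 2 and 1 to 17 without another single library. The calls lost numbered 25 in the fit over the 6 libraries, 17 with the replicate block, 7 with library size only, 5 with no filter, 4 with unstranded counts and 4 without replicate 2 of every group, and 3 with a mean of at least 1 CPM, where genes below that level were not tested. RLE scaling, DESeq2 and leaving out the 10 most abundant genes ended no call, and no named call changed sign in these alternatives. The fold change of 76 of the 164 genes moved by over 1.5 times when 1 library was left out. With the replicate block Krt8 and Krt18 were called higher (adjusted p = 0.01002 and 0.00924) and Pdgfra lower (adjusted p = 0.0150). The cause of these losses was not tested, but leaving out a library also leaves fewer samples.

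Whether depth plays a part in the results for genes of few counts was not tested. A difference between the hairpins and a difference in cell composition cannot be told apart in these libraries, and Cbx7 RNA does not check the shCBX7 label.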

Other observations

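Runs of neighbouring genes called in 1 direction were looked for along the chromosomes, and the 4 runs of at least 6 genes are given as values, chosen after they were seen and with no test. On chromosome 13, 33027416 to 33905708 (GRCm38/mm10), 7 neighbouring tested genes of the clade B serpins, which inhibit serine proteases inside cells, were called higher. Serpinb9b was at 74.9, 66.1 and 51.3 CPM in shCBX8 and 6.05, 5.32 and 14.6 CPM in shCBX7, and Serpinb6c at 0.754, 0.962 and 0.968 against 0.274, 0.149 and 0.309 CPM. The others were Serpinb1b, Serpinb9c, Serpinb9d, Serpinb9e and Serpinb9g, and since these paralogs are alike in sequence, their counts may be split between copies. Without single libraries the call ended for Serpinb6c without shCBX7 1/2 or shCBX8 1/6 (adjusted p = 0.0664 to 0.0887).

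On chromosome 12, 12262139 to 16610966, 7 neighbouring tested genes were called lower. They included Mycn, the MYC family factor of progenitors (0.775, 1.23 and 0.538 CPM in shCBX8 against 5.56, 4.75 and 4.40 CPM in shCBX7), Trib2 (32.5, 69.9 and 42.5 against 158, 180.4 and 233 CPM), and Lpin1, a phosphatidate phosphatase of lipid synthesis (46.3, 61.2 and 66.01 against 85.1, 111 and 112 CPM), with Fam49a, Ddx1, Nbas and Fam84a. A run of 6 on chromosome 14, 55761428 to 55874736, was lower and held the leukotriene B4 receptor genes Ltb4r1 and Ltb4r2, Adcy4, Ripk3, Nfatc4 and Nynrin. Nfatc4 was at 6.16, 46.5 and 5.83 CPM in shCBX8 and 81.4, 183 and 81.98 CPM in shCBX7. The other run of 6, on chromosome 10, 79860475 to 79955018, held Plppr3, Prtn3, Med16, R3hdm4, Kiss1r and Arid3a, also lower. Of the 4 lower genes given with values, single libraries decided the calls of Lpin1 without shCBX7 2/5 or shCBX8 1/6 (adjusted p = 0.0721 to 0.129) and Nfatc4 without shCTR 5 or shCBX7 1/2 or shCBX8 1/6 (adjusted p = 0.0527 to 0.107).

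Calls were spread over all chromosomes. The share called higher ran from 11.5% of 956 genes tested on chromosome 9 to 19.9% of 577 on chromosome 14, and the share called lower from 10.3% of 1049 on chromosome 4 to 17.1% of 778 on chromosome 10.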
